A study of Homo sapiens with 4 samples.

Results

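Genes listed as targets of p53 were followed in Myla cells after knockdown of the forkhead factor FOXM1. Whether p53 controls each of them in these cells was not tested. The Myla line grew from mycosis fungoides, a T cell lymphoma that starts in skin. The set holds 31 genes, chosen by name from the 58735 genes of the expression table, and 26 of them were high enough to be tested. One group of 2 libraries came from cells transduced with a lentivirus carrying a short hairpin RNA against FOXM1 (shFOXM1, genotype given as FOXM1 knockdown), and the other group of 2 from cells given a scrambled hairpin (shControl, genotype given as WT). All cultures received 10 uL of virus medium per 1 mL, had their medium changed after 24 h, and were harvested 72 h later. Whether the 2 shFOXM1 libraries carry the same hairpin is not stated, and all 4 come from a single cell line. The gene that encodes p53 is not a member and is not reported here, so the label holds only for the target genes.

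p53 is a transcription factor that is kept low in unstressed cells by the ubiquitin ligase MDM2 and accumulates after DNA damage and other stress. It then binds response elements near its targets, whose products halt the cell cycle, repair DNA, adjust metabolism or trigger cell death, and some of which feed back to lower p53 again. FOXM1 drives genes of cell division, and a question this comparison addresses is how genes of cell cycle arrest stand when it is depleted.

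Levels are FPKM as the authors deposited them, a unit that corrects fragment numbers for the length of a gene and the depth of a library, and the reads behind them numbered from 14147084 to 15017728 per library. FOXM1 was at 9.27 and 5.59 FPKM in shFOXM1 1 and 2, against 26.5 and 27.6 FPKM in shControl 1 and 2, so the targeted gene was lower in both shFOXM1 libraries (log2 fold change -1.77, SE 0.23, limma adjusted p = 0.173). FOXM1 shares 15.9% of its exon bases with ITFG2 on the opposite strand, which was at 2.23 to 3.15 FPKM. The shFOXM1 libraries lay further apart than the shControl libraries, with an SD over genes of the log2 difference of 0.424 in shFOXM1 and 0.263 in shControl. Of 12 T cell markers 7 were high enough to be tested, CD3D, CD3G, CD2, CD247 and ZAP70 among them, while CD3E, CD5, CD7 and LCK were below 0.2 FPKM in every library and CD4 had no reads. Of 24 markers of B cells, monocytes, fibroblasts, endothelium and keratinocytes, 4 were high enough to be tested and 7 had no reads. Of those 4, COL1A1, a collagen of fibroblasts, was at 3.23 and 4.48 FPKM in shFOXM1, against 2.50 and 2.75 FPKM in shControl, higher in both, while DCN and LUM had no reads. CD79A, a B cell receptor subunit, was at 0.27 and 7.38 FPKM in shFOXM1, against 1.73 and 1.44 FPKM in shControl, and so lay far apart between the shFOXM1 libraries. CSF1R, at 8.47 to 13.5 FPKM, and KRT10, at 8.18 to 11.1 FPKM, overlapped between the groups. Of the 7 T cell markers tested, 2 (28.6%), CD3G and CD28, were lower in both shFOXM1 libraries, against 25.9% of all genes tested. CD3G was at 19.2 and 20.8 FPKM in shFOXM1, against 23.3 and 22.8 FPKM in shControl. CD28 was at 1.87 and 1.09 FPKM in shFOXM1, against 2.26 and 2.25 FPKM in shControl. The 1 marker higher in both (14.3%, against 27.3% of all genes tested) was CD247. It was at 20.6 and 24.1 FPKM in shFOXM1, against 19.6 and 18.4 FPKM in shControl. The rest of the 7 overlapped between the groups. The part of these markers in the results below was not tested. In bulk RNA, fewer cells of a type and less RNA per cell cannot be told apart.

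Sequences that resemble a p53 response element lie close to the start of several of these genes. Those of 6 members are shown because their levels are followed below. Binding of p53 to them was not tested. Promoters (250 bases before to 50 after each RefSeq start, GRCh38.p14) were found for 27 of the 31 members. They were searched for the p53 response element, taken as 2 adjoining decamers of the p53 consensus with the C and G of each core (CNNG) fixed and up to 3 mismatches elsewhere. The decamer reads the same on both strands, so a single search covers both. At least 1 promoter of 7 members held such an element (25.9%), against 1.37% of all 27305 genes with a promoter in the table. The members are genes named for their control by p53, so the share describes the choice and is no test of it. The windows are chr12:68808893-68808972 on the plus strand for MDM2, chr6:109008989-109009067 on the minus strand for SESN1, chr11:47214964-47214993 on the plus strand for DDB2, chr15:88621301-88621330 on the plus strand for AEN, chr17:74872991-74873020 on the minus strand for FDXR and chr15:63157522-63157551 on the minus strand for RPS27L. Each is written 5′ to 3′ on the strand of its gene, with the element in capitals:
MDM2: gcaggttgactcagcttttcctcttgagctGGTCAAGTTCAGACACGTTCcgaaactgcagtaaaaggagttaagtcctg
SESN1: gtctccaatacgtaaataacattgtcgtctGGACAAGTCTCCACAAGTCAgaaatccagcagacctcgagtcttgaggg
DDB2: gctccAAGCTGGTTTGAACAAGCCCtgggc
AEN: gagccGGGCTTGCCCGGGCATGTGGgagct
FDXR: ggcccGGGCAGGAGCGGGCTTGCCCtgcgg
RPS27L: aggagGGCCTAGAGCAGACAAGCCCgcccc
Only the closest match in each promoter is in capitals. Decamers without the fixed C and G were not sought, so the lowercase bases may hold other sites. The DDB2 element differs from the consensus at 1 position, those of MDM2 and AEN at 2, and those of SESN1, FDXR and RPS27L at 3. The element of MDM2 ends 75 bases before the start of its internal promoter, and that of DDB2 spans a start site. The seventh member with an element, GDF15, has it just after its start, and PLK2 holds a single decamer that matches the consensus in full.

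Over the 31 genes as a whole, most differences between shFOXM1 and shControl were small and leaned upwards. The controls also differed from each other, with a median log2 difference of shControl 2 minus shControl 1 of 0.12 over the members tested. Both shFOXM1 libraries lay above both shControl libraries for 12 of the 26 members tested (46.2%), against 27.3% of all 12033 genes tested. Both lay below for 2 of the 26 (7.69%), CCNG1 and TIGAR, against 25.9% of all genes tested. For the remaining members, the 5 not tested included, the groups overlapped. The median log2 difference, on the log2(FPKM + 1) scale that understates changes of low genes, was 0.19 over the 26 members tested and 0.00 to 2 decimals over all genes tested. Over all 31 members it was 0.11. Of the 5 untested ones, PLK2, SPATA18, PHLDA3 and GDF15 lie at low or no expression, where the scale compresses differences. TP53INP1 had a log2 difference of 0.40.

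No member passed limma's test over all genes at an adjusted p under 0.05 in either direction, and 0 of the 12033 genes did (0%). Before adjustment, limma gave a p under 0.05 to GADD45B, BTG2 and TRIAP1 on the higher side, 3 in all, and to 1 member, TIGAR, on the lower. Those counts are 11.5% and 3.85% of the members tested, against 8.82% and 8.99% of all genes tested. Differences of single members are therefore given below as values. With voom and library weights, an alternative that gives noisier libraries less say, 0 members passed in either direction, against 0.183% of all genes on the higher and 0.0748% on the lower side. The fitted fold change was positive for 17 of the 26 members tested (49.9% of all genes) and negative for 9 (50.1% of all genes). With 2 libraries a group, an exact two-sided permutation test of a single value cannot go below p = 0.333. All 26 members tested were at 1 FPKM or more in all 4 libraries, so none entered the test through 1 group alone.

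**Figure D1:**
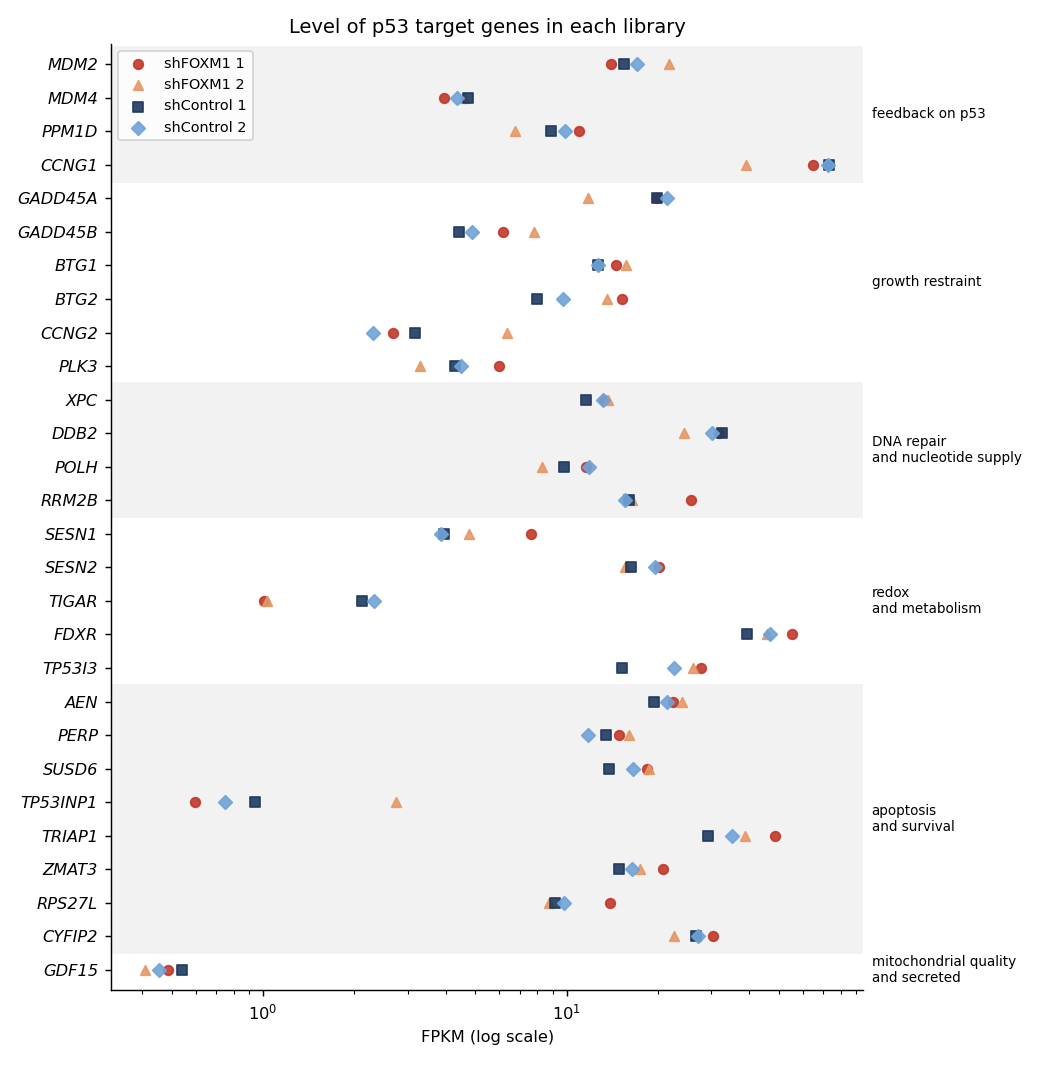
Level of 28 p53 target genes in each library, in FPKM on a log axis, with genes grouped by role. Points are single libraries. TIGAR and CCNG1 have both shFOXM1 points left of both shControl points, BTG2 and GADD45B have both to the right, and PLK2, SPATA18 and PHLDA3 are left out because at most 2 reads were counted for each.

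The genes that act back on p53 did not share a direction. MDM2, the ligase that marks p53 for degradation and itself a p53 target (chr12:68808176-68850686, plus strand, GRCh38), was at 14.1 and 21.7 FPKM in shFOXM1 1 and 2, against 15.4 and 17.1 FPKM in shControl 1 and 2. One shFOXM1 library was thus below both controls and the other above both, and the fitted log2 fold change was 0.10 (95% interval -0.47 to 0.67). MDM4, a relative of MDM2 that blocks p53's activation domain, was at 3.95 and 4.58 FPKM in shFOXM1 and at 4.75 and 4.37 FPKM in shControl, with overlapping groups. PPM1D, a phosphatase that turns off p53 and the kinases upstream of it, was at 11.0 and 6.75 FPKM in shFOXM1, against 8.90 and 9.90 FPKM in shControl. Its libraries straddled the controls in the opposite order to those of MDM2, with shFOXM1 1 high and shFOXM1 2 low.

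CCNG1, cyclin G1, which brings a phosphatase to MDM2, was the most abundant of the 31 genes in shControl. It was at 65.0 and 38.9 FPKM in shFOXM1 1 and 2, against 73.3 and 72.8 FPKM in shControl 1 and 2. Both shFOXM1 libraries were lower, and most of the gap came from shFOXM1 2. The log2 fold change was -0.53 (SE 0.25, limma adjusted p = 0.35), and without shFOXM1 1 it was -0.89 with a limma adjusted p of 0.0122, in a fit whose spread comes from the controls alone. Without shFOXM1 2 it was -0.17 (limma adjusted p = 0.167).

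Among the genes that restrain growth, BTG2 and GADD45B were higher in both shFOXM1 libraries. BTG2, an antiproliferative protein that recruits the machinery that shortens mRNA tails (chr1:203305491-203309602, plus strand), was at 15.3 and 13.6 FPKM in shFOXM1 1 and 2, against 7.999 and 9.74 FPKM in shControl 1 and 2. The means were 14.5 ± 1.15 FPKM in shFOXM1 and 8.87 ± 1.23 FPKM in shControl (SD, n = 2 each), and the groups did not overlap. The ratio was 1.63, and the log2 fold change of 0.65 (SE 0.14), the highest of the 26, had a limma adjusted p of 0.184.

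The other BTG member, BTG1, was at 14.5 and 15.7 FPKM in shFOXM1 and at 12.7 FPKM in each shControl library, a smaller gap with a ratio of 1.19. It shares 10.4% of its exon bases with LINC01619 on the same strand, so reads there are uncertain. GADD45B, a stress sensor that activates a MAP kinase cascade, was at 6.16 and 7.80 FPKM in shFOXM1, against 4.42 and 4.88 FPKM in shControl. All values of GADD45B in shFOXM1 exceeded those in shControl (log2 fold change 0.49, SE 0.15, limma adjusted p = 0.229). Its relative GADD45A had a fold change of the opposite sign, at 19.9 and 11.8 FPKM in shFOXM1 and 19.8 and 21.5 FPKM in shControl. In GADD45A only shFOXM1 2 lay apart, and the groups overlapped (log2 fold change -0.40, SE 0.25, limma adjusted p = 0.448). The fold change of GADD45A was -0.76 without shFOXM1 1 and -0.0477 without shFOXM1 2.

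CCNG2, cyclin G2, a cyclin of resting rather than dividing cells, was at 2.69 and 6.35 FPKM in shFOXM1 1 and 2, against 3.17 and 2.30 FPKM in shControl 1 and 2. shFOXM1 1 lay between the controls and shFOXM1 2 far above them. The related CCNG1 showed its lowest value in that same library. PLK3, a stress-responsive polo-like kinase, was at 6.001 and 3.28 FPKM in shFOXM1 and at 4.29 and 4.48 FPKM in shControl, again on both sides of the controls. PLK2, a kinase of the same family, had no reads in any library, which allows a level of up to 0.0443 FPKM per library (3 reads, counting error only).

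Genes of DNA repair and nucleotide supply had fold changes of both signs. The log2 difference of shFOXM1 2 minus shFOXM1 1 was -0.38 for DDB2, -0.44 for POLH, -0.62 for RRM2B and 0.04 for XPC. XPC, which recognises damage in nucleotide excision repair, was at 13.3 and 13.7 FPKM in shFOXM1 and 11.6 and 13.2 FPKM in shControl, and DDB2, which recognises lesions made by ultraviolet light, at 31.9 and 24.3 FPKM in shFOXM1 and 32.5 and 30.2 FPKM in shControl. POLH, the polymerase that copies past such lesions, was at 11.6 and 8.29 FPKM in shFOXM1 and 9.81 and 11.8 FPKM in shControl, so its groups overlapped. Of the exon bases of XPC, 23.8% are shared with an antisense gene at no more than 0.658 FPKM, and without the strand setting those reads cannot be told apart. RRM2B, a ribonucleotide reductase subunit that supplies nucleotides outside S phase, was at 25.7 and 16.4 FPKM in shFOXM1, against 16.1 and 15.6 FPKM in shControl. Both shFOXM1 values of RRM2B were the higher ones, but shFOXM1 2 exceeded the nearest control by little (log2 fold change 0.36, SE 0.22, limma adjusted p = 0.448). The fold change of RRM2B was 0.67 without shFOXM1 2 and 0.048 without shFOXM1 1.

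The metabolic targets held both the lowest log2 fold change of the 26 and several higher ones. TIGAR, a phosphatase that lowers glycolytic flux (chr12:4307763-4354593, plus strand), was at 1.01 and 1.03 FPKM in shFOXM1 1 and 2, against 2.12 and 2.33 FPKM in shControl 1 and 2. These rested on 60 and 63 reads in shFOXM1 and on 121 and 138 reads in shControl. Both shFOXM1 libraries were low and nearly equal, and the mean of 1.02 ± 0.0142 FPKM in shFOXM1 was 0.458 times the 2.23 ± 0.146 FPKM in shControl (SD, n = 2 each). The log2 fold change was -0.68 (SE 0.15, limma adjusted p = 0.188), and with a pseudocount of 0.01 in place of 1 it was -1.12. A gene annotated on the same strand, AC008012.1, shares 42.6% of the exon bases of TIGAR and is listed at 0 in all libraries, so the assignment of reads in the shared part is uncertain.

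SESN1, a sestrin that restrains mTORC1, was at 7.65 and 4.78 FPKM in shFOXM1 1 and 2, against 3.96 and 3.86 FPKM in shControl 1 and 2. Both shFOXM1 libraries were higher, shFOXM1 1 by the wider margin (ratio 1.59, log2 fold change 0.53, SE 0.22, limma adjusted p = 0.308). Without shFOXM1 2, limma gave SESN1 a log2 fold change of 0.82 and an adjusted p of 0.0417, and without shFOXM1 1 the values were 0.23 and 0.171. The second sestrin, SESN2, was at 20.1 and 15.6 FPKM in shFOXM1 and 16.3 and 19.6 FPKM in shControl, with 1 shFOXM1 library on each side of the controls.

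TP53I3, a quinone reductase linked to oxidative stress, was at 27.7 and 26.1 FPKM in shFOXM1, against 15.2 and 22.6 FPKM in shControl. The shFOXM1 values were higher, but the controls lay further from each other than shControl 2 lay from shFOXM1 (log2 fold change 0.51, SE 0.20, limma adjusted p = 0.29). FDXR, the ferredoxin reductase of mitochondria, was at 55.5 and 45.8 FPKM in shFOXM1 and 39.4 and 46.7 FPKM in shControl, and its groups overlapped.

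Of the 9 genes of apoptosis and survival 7 were tested, and 5 of these (71.4%) had both shFOXM1 libraries above both shControl libraries, against 27.3% of all genes tested. In 0 of the 7 did both lie below, against 25.9% of all genes tested. TRIAP1, which restrains the apoptosome, was at 48.8 and 38.8 FPKM in shFOXM1 1 and 2, against 29.3 and 35.1 FPKM in shControl 1 and 2 (log2 fold change 0.43, SE 0.17, limma adjusted p = 0.28). All shFOXM1 values of TRIAP1 exceeded the controls, shFOXM1 2 by less. ZMAT3, an RNA-binding zinc finger protein, PERP, a membrane protein of cell junctions that can promote cell death, and SUSD6, a membrane protein, were each 1.22 times as high in shFOXM1 as in shControl. ZMAT3 was at 20.8 and 17.5 FPKM in shFOXM1, against 14.9 and 16.4 FPKM in shControl. PERP was at 14.9 and 16.0 FPKM in shFOXM1, against 13.5 and 11.8 FPKM in shControl. SUSD6 was at 18.5 and 18.6 FPKM in shFOXM1, against 13.8 and 16.6 FPKM in shControl. In PERP and SUSD6 the shFOXM1 libraries lay closer together than the controls did. AEN, a nuclease that degrades DNA in dying cells, was at 22.4 and 24.1 FPKM in shFOXM1, against 19.5 and 21.5 FPKM in shControl, a ratio of 1.13. The limma adjusted p of these 4 genes ran from 0.335 to 0.472.

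RPS27L, a relative of a ribosomal protein, was at 13.9 and 8.77 FPKM in shFOXM1, against 9.18 and 9.78 FPKM in shControl. CYFIP2, a subunit of the WAVE complex that directs actin assembly, was at 30.3 and 22.6 FPKM in shFOXM1, against 26.6 and 27.0 FPKM in shControl. In both genes shFOXM1 1 was the highest library and shFOXM1 2 the lowest. TP53INP1, which promotes autophagy and cell death, was at 0.595 and 2.74 FPKM in shFOXM1, against 0.943 and 0.752 FPKM in shControl. It showed the opposite order, with shFOXM1 2 high, and was not tested since 1 library alone reached 1 FPKM.

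The last members were silent or close to it. PHLDA3, which blocks the kinase AKT at the membrane, had 2 reads in shFOXM1 1 and 0 in the other 3 libraries. SPATA18, which acts in mitochondrial quality control, had 0 reads in all 4, which allows up to 0.0428 FPKM per library. GDF15, a secreted stress cytokine, was at 0.486 and 0.409 FPKM in shFOXM1 and 0.540 and 0.455 FPKM in shControl, on 13 to 16 reads, with overlapping groups.

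**Figure D2:**
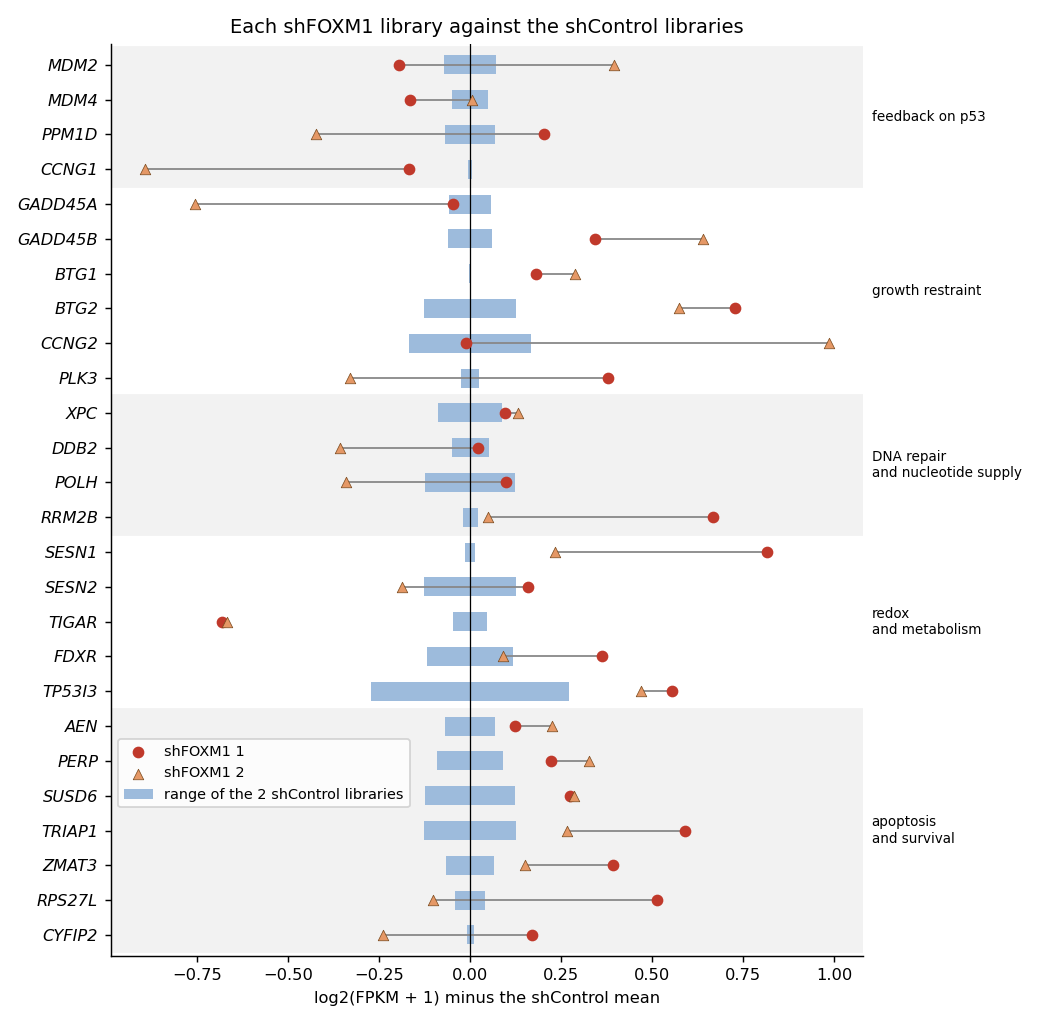
log2(FPKM + 1) of each shFOXM1 library minus the mean of the 2 shControl libraries, for the 26 members tested. The circle is shFOXM1 1, the triangle shFOXM1 2, and the bar the range of the shControl libraries. Both points of BTG2, GADD45B and SESN1 lie right of the bar and both of TIGAR left of it, while MDM2, PPM1D, PLK3, RPS27L and CYFIP2 have a point on each side.

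The 2 shFOXM1 libraries disagreed with each other on many of these genes. For 6 of the 26 tested members (23.1%) one shFOXM1 library lay above and the other below both controls, against 21.4% of all genes tested. These were MDM2, PPM1D, PLK3, SESN2, RPS27L and CYFIP2, and the untested TP53INP1 did likewise. The log2 gap between the shFOXM1 libraries exceeded 0.5 for 9 members tested (34.6%), against 18.6% of all genes tested. That between the shControl libraries did so for 1 member, TP53I3, against 4.66% of all genes tested. shFOXM1 1 exceeded shFOXM1 2 for 16 members tested (61.5%, against 53.3% of all genes tested). Set against the mean of the controls, the 26 members tested had a median log2 difference of 0.19 for shFOXM1 1 and of 0.11 for shFOXM1 2. Between the controls, the median of shControl 2 minus shControl 1 was 0.12. The gap within shControl is thus as large as the median for shFOXM1 2.

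Which members pass a test depends on the shFOXM1 library kept. With shFOXM1 1 left out, limma called GADD45B, BTG2 and CCNG2 higher (11.5% of the members tested, against 11.3% of all genes tested) and CCNG1, GADD45A, DDB2 and TIGAR lower (15.4%, against 14.5%). With shFOXM1 2 left out, RRM2B and SESN1 were called higher (7.69%, against 2.34%) and 0 members lower (0%, against 2.95%). No member was called by both fits. Each of these fits takes the lone shFOXM1 library to vary as the controls did. TIGAR had nearly the same log2 fold change in both, at -0.67 without shFOXM1 1 and -0.68 without shFOXM1 2. So did SUSD6, at 0.29 and 0.27, while BTG2 was at 0.57 and 0.73. Both fits use the same shControl libraries.

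**Figure D3:**
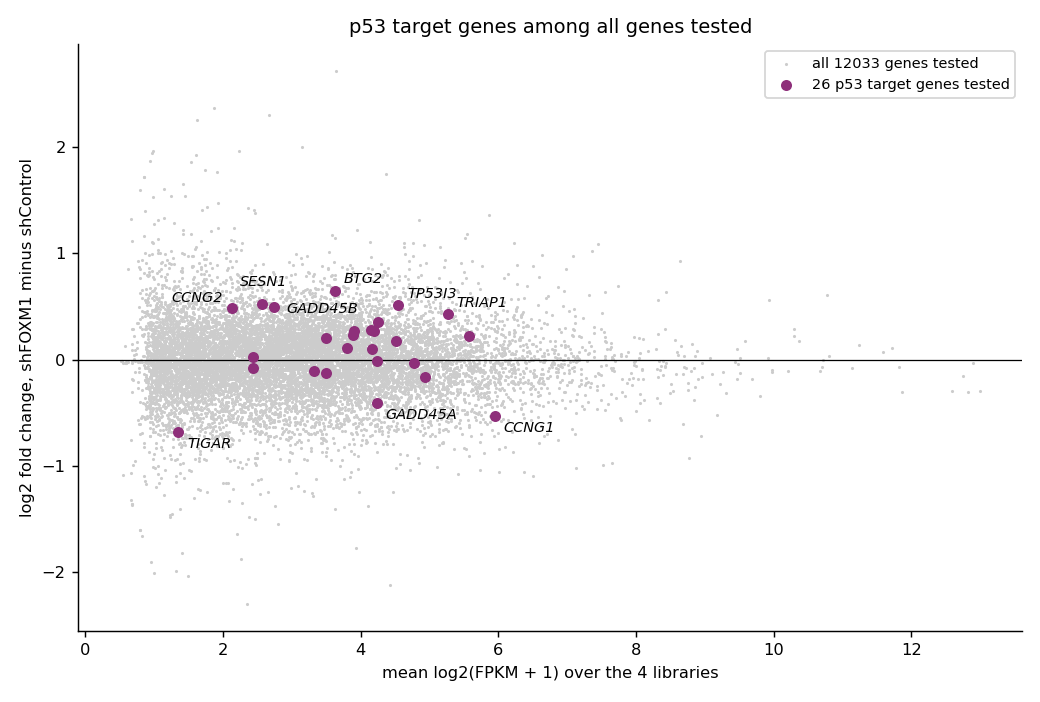
log2 fold change (shFOXM1 minus shControl) against mean log2(FPKM + 1) for all 12033 genes tested (grey) and the 26 members tested (purple). The members lie between -0.68 for TIGAR and 0.65 for BTG2, within the cloud of all genes.

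Other targets of p53 outside the 31, taken from a list of 28, were seldom lower in both shFOXM1 libraries. Their share higher in both was nearer that of all genes. Of the 26 tested, 9 (34.6%) had both shFOXM1 libraries above both controls and 1 (3.85%) had both below, against 27.3% and 25.9% of all genes tested. One shFOXM1 library lay above and the other below both controls for 10 (38.5%), against 21.4% of all genes tested. Their median log2 difference was 0.16, with medians of 0.24 for shFOXM1 1 and 0.07 for shFOXM1 2 alone. For the same genes the median of shControl 2 minus shControl 1 was 0.12, close to that difference. In limma 0 of the 26 passed in either direction. CDKN1A, which encodes p21, a brake on cyclin-dependent kinases, was at 149 and 106 FPKM in shFOXM1 1 and 2, against 63.1 and 83.9 FPKM in shControl 1 and 2. CD82, a tetraspanin of the cell surface, was at 77.3 and 98.1 FPKM in shFOXM1, against 47.7 and 54.1 FPKM in shControl. Both genes had log2 fold changes above that of BTG2, 0.78 for CDKN1A (SE 0.22, limma adjusted p = 0.214) and 0.77 for CD82 (SE 0.16, limma adjusted p = 0.183).

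TRIM22, PLXNB2 and TNFRSF10B, a death receptor, had log2 fold changes of 0.50, 0.46 and 0.30. APAF1, the scaffold of the apoptosome, was at 11.4 and 11.5 FPKM in shFOXM1, against 14.8 and 15.3 FPKM in shControl. It was the one gene of that list with both shFOXM1 libraries below the controls (log2 fold change -0.36, SE 0.11, limma adjusted p = 0.219).

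In a list of 19 regulators and cofactors of p53, both shares lay near those of all genes. Of the 17 tested, 5 (29.4%) had both shFOXM1 libraries above both controls and 4 (23.5%) had both below, against 27.3% and 25.9% of all genes tested. The median log2 difference was 0.08 over these 17 and 0.00 to 2 decimals over all 19, and 0 of the 17 passed in limma. CHEK1, the kinase of the replication checkpoint, was at 11.3 and 8.80 FPKM in shFOXM1, against 14.9 and 13.4 FPKM in shControl. EP300, an acetyltransferase that serves p53 as coactivator, was at 14.6 and 14.2 FPKM in shFOXM1, against 11.5 and 11.7 FPKM in shControl. KAT5, HUWE1 and ATM, the kinase that signals DNA breaks, had log2 fold changes of 0.39, 0.26 and 0.35, and PPP1R13B one of -0.30, with limma adjusted p from 0.278 to 0.346.

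**Figure D4:**
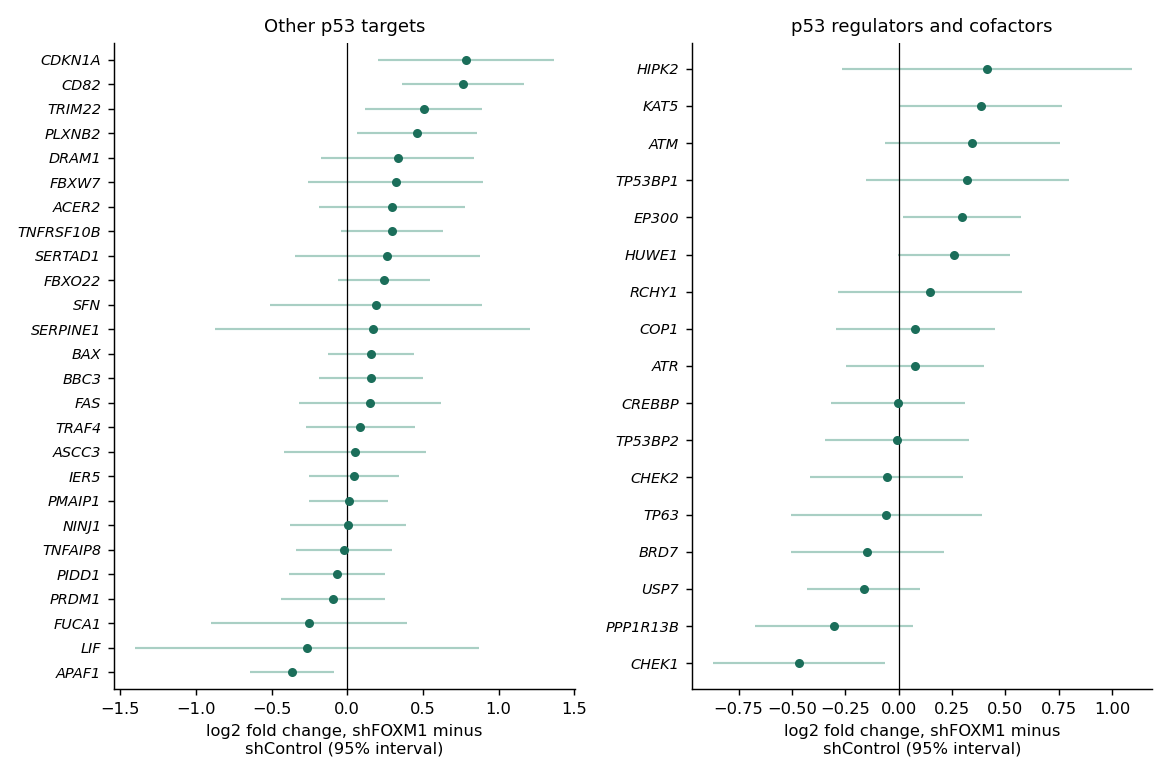
log2 fold change (shFOXM1 minus shControl) with its 95% interval from limma, for 26 other p53 targets (left) and 17 regulators and cofactors of p53 (right) that were measured. CDKN1A and CD82 have the highest values on the left at 0.78 and 0.77, and CHEK1 has the lowest on the right at -0.47.

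The members that carry an element in a promoter did not stand together. Their log2 fold changes were 0.53 for SESN1, 0.23 for FDXR, 0.21 for RPS27L, 0.17 for AEN, 0.10 for MDM2 and -0.17 for DDB2, and GDF15, the seventh, was too low to be tested. BTG2, TP53I3, GADD45B and TIGAR, with larger fold changes than most of these, had no such element in the 300 bases searched, which says nothing of elements elsewhere. A forkhead motif (GTAAACA or its reverse complement TGTTTAC) was in a promoter of 3 members, BTG1, PERP and GDF15 (11.1%, against 4.19% of all genes with a promoter). The cell cycle homology region (TTTGAA or TTCAAA) was in a promoter of MDM4, ZMAT3 and DDB2 (11.1%, against 18.2%), and an E2F motif (TTTCGCGC or GCGCGAAA) in a promoter of 0 members (0.63% of all genes with a promoter).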

How the data were processed

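The authors deposited one table of FPKM for 58735 genes and 4 libraries, with gene lengths and positions, per the file headers. All 58735 genes have the start and end of GENCODE release 29 (GRCh38), the build of every gene position printed, although GRCm38 and mm10, builds of the mouse genome, are the ones in the submitters' processing notes. How reads were aligned and counted, and with which strand setting, is not given in the sources used here. Columns named sh0 were taken as shControl, and those named sh1 and sh2 as shFOXM1 1 and 2. There were 0 columns of other samples. Reads were recovered as FPKM times length, and 100% of values were whole to within 0.01 read.

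The test was limma 3.58.1 (R 4.3.3) on log2(FPKM + 1), with a mean-variance trend, two-sided, over the 12033 genes that reached 1 FPKM in 2 or more libraries. Calls needed a Benjamini-Hochberg adjusted p under 0.05. Nothing says that the cultures were separate, so a p-value here reflects the spread among these 4 libraries alone, and that spread may be technical. Replicates lay further apart than counting noise gives (chi-square per degree of freedom 36.5 in shFOXM1, 3.93 in shControl). Members and lists were chosen with earlier results of these data known. Named genes were all members, FOXM1, markers, and the 6 genes with the smallest unadjusted p in each other p53 list. COL1A1 and the motifs were chosen after the values were seen. Alternatives changed the pseudocount, filter, scaling, trend, test, block and libraries.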

Additional observations from a re-analysis of the deposited data

How the results depend on the processing

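No member was called under any alternative that keeps all 4 libraries, voom with library weights included. That fit called 22 genes higher and 9 lower over the whole table. FOXM1 was among the lower ones (log2 fold change -1.89, limma adjusted p = 0.0189). With each library dropped in turn, calls over the whole table ran from 0 to 1360 higher and from 0 to 1744 lower, those among members from 0 to 3 higher and from 0 to 4 lower, and the log2 fold change of FOXM1 from -2.09 to -1.45. Members with both shFOXM1 libraries above the controls then numbered 13 to 19, and below 4 to 11, as fewer libraries have to be separated. The median log2 difference of the members ran from 0.0304 (without shControl 1) to 0.18, and was 0.048 without shFOXM1 1. It was 0.22 at a mean of at least 5 FPKM and in both voom fits and 0.19 with the replicate block, each over fewer members than the 31, and the fit without the block also gives 0.19 over the 26 tested. Over all 31, against 0.11, pseudocounts of 0.1 and 0.01 gave 0.18. Quantile normalization gave 0.18 over the 26 tested, against 0.19. Deviations of same-numbered libraries correlated at 0.0421 in the 2 pairs, so the labels' numbers were not taken as pairs, and the block called 0 genes. Over single members, 361 values held their call and sign, 9 became calls and 16 turned sign. SESN2 turned at 0.0003 with recovered read totals or weighted voom and at 0.0001 in plain voom. With single libraries left out, log2 fold changes ran from -0.20 to 0.39 for MDM2, -0.17 to 0.0063 for MDM4, -0.42 to 0.20 for PPM1D, -0.0101 to 0.99 for CCNG2, -0.33 to 0.38 for PLK3, -0.36 to 0.0231 for DDB2, -0.34 to 0.10 for POLH, -0.19 to 0.16 for SESN2, -0.10 to 0.51 for RPS27L and -0.24 to 0.17 for CYFIP2. The cause was not tested. Depth limits PHLDA3, GDF15, PLK2 and SPATA18, which rest on 16 reads or fewer per library.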
